A study of Homo sapiens with 20 samples.

Results

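The KLF transcription factors KLF2, KLF3, KLF4, KLF5, KLF6, KLF7, KLF9, KLF10, KLF11 and KLF13 were examined in the N6-methyladenosine (m6A) peak lists of the bladder cancer cell lines T24 and T24R2. A peak was assigned to a KLF gene when its summit, the base of highest pileup, lay in an exon of that gene. This rule took 217 of the 231465 peaks in the 10 lists. These peaks fell in 26 of the 43676 regions obtained by merging the lists, and the 10 genes were among 10237 protein-coding genes with at least 1 exonic summit.

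Krüppel-like factors bind GC-rich and CACCC elements through C-terminal C2H2 zinc fingers, and their N-terminal parts recruit different cofactors. KLF2, KLF4, KLF5, KLF6 and KLF7 act mainly as activators, KLF3 represses through CtBP proteins, and KLF9, KLF10, KLF11 and KLF13 recruit the SIN3A corepressor. KLF4 and KLF5 are known for opposing roles in epithelial differentiation and proliferation, and KLF10 and KLF11 were first described as early genes of the TGF-β response. The m6A mark is deposited on nascent mRNA by the METTL3 and METTL14 complex within DRACH motifs. In DRACH, the letter R stands for A or G, D for any base but C, and H for any base but G.

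T24 is a human bladder cancer line sensitive to cisplatin. T24R2 descends from T24, resists the drug and is kept in medium that contains it. Both were labelled wild type and day 3. Each line gave 5 libraries immunoprecipitated (IP) with an anti-m6A antibody and 5 input libraries without antibody. T24R2 is a single derivation, so resistance and other differences between these cultures cannot be told apart. The labels do not state whether the 5 replicates of a line were separate cultures, so p-values measure the spread between these libraries, which may be technical.

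Lists held 17203 to 22901 peaks in T24 and 22671 to 33120 in T24R2. Read counts were not used here, so the depth behind a peak is unknown. Of the markers of urothelial and luminal cells, 6 of 12 carried an exonic peak in at least 1 library, among them KRT7 and FOXA1 in every library and GATA3 in 5 T24 and 0 T24R2 libraries. KRT8, KRT19, KRT20, UPK1B, UPK2 and UPK3A carried none. Counts were 1 of 5 for basal markers (CD44), 3 of 4 for mesenchymal markers (VIM, CDH2 and ZEB1) and 0 of 4 for blood cell markers. A VIM region (chr10:17228466-17229065) was called in 5 T24 and 0 T24R2 libraries, with its summit in an exon in 3, while VIM as a whole had exonic peaks in 5 and 4. A missing peak can reflect a missing transcript or a missing mark.

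For each gene except KLF10, the sequences are the DRACH motif closest to the median summit of 1 region called in all 10 libraries, with 10 bases on either side. The lines show sequence near the median summit, which was within 50 nt of the motif in each. Single summits could lie much farther away. On the canonical transcript, the strongest summits of KLF4 region 2 ran from nt 1266 to 1703, with the motif at 1583. Those of KLF6 region 1 ran from nt 473 to 796, with the motif at 496. Sequences are those of the transcribed strand of hg38, and capitals mark the DRACH motif. Regions are numbered from 5′ to 3′ along the canonical transcript, with those off it last.
KLF2 region 3, chr19:16327119-16327143, plus strand: tggacccagaGAACCgggccgggca
KLF4 region 2, chr9:107487396-107487420, minus strand: tgagcagcagGGACTgtcaccctgc
KLF5 region 2, chr13:73062415-73062439, plus strand: gactgcagtgAAACAattccagggc
KLF6 region 1, chr10:3782004-3782028, minus strand: tacaacttagAGACCaacagcctga
KLF7 region 2, chr2:207123904-207123928, minus strand: cgttaagagtGGACAgagcgacagt
KLF3 region 1, chr4:38697211-38697235, plus strand: tctcccgttcTGACCatcttgccct
KLF9 region 1, chr9:70413146-70413170, minus strand: agagcttgttGGACCtgaacaagta
KLF13 region 2, chr15:31373329-31373353, plus strand: tgcttcacagAGACCattctgtagc
KLF11 region 1, chr2:10047921-10047945, plus strand: gccggctttcTGACAgcagagaagg

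The motif in KLF9 region 1 lay 0.5 nt from the median summit and that in KLF11 region 1 lay 1 nt from it. In KLF2 region 3 and KLF4 region 2 the distances were 36.5 and 29 nt. A DRACH motif was found within 50 nt of the summit in 86.6% of 216 KLF peaks on the transcribed strand and in 69.0% on the opposite strand. Over 165758 exonic peaks of all genes the shares were 90.5% and 71.6%, so the KLF share was no higher than the background. GGAC, a frequent core of the motif that overlaps DRACH, was present at 59.3% of KLF summits and 47.9% of all exonic summits (23.6% and 24.4% on the opposite strand).

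The KLF genes differed in which motif lay at their summits. All 20 KLF10 peaks had a DRACH motif and 0 of 20 had GGAC, whereas GGAC lay at 21 of 24 KLF9 peaks, 14 of 19 KLF13 peaks and 12 of 16 KLF11 peaks. GGAC was also rare in KLF5, at 3 of 19 peaks. Summits without DRACH numbered 29 and lay mostly in a few regions. A DRACH motif was found at 0 of 8 peaks of KLF6 region 2, 0 of 3 of KLF5 region 1, 9 of 14 of KLF4 region 2, 6 of 10 of KLF7 region 1 and 4 of 7 of KLF7 region 3. Peaks in the same region share sequence and are not independent.

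On the canonical transcripts, 210 of the 217 summits could be placed. The coding sequence held 134 of them (63.8%), the 3′UTR 57 (27.1%) and the 5′UTR 19 (9.05%), next to 61.4%, 31.4% and 7.18% of 135518 peaks on all protein-coding transcripts. The last exon held 44.3% of the KLF summits and 54.7% of all. Summits within 400 nt of the stop codon made up 55.7% of KLF peaks and 35.7% of all peaks. These shares pool libraries that called the same regions, so they are given without a test.

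**Figure D1:**
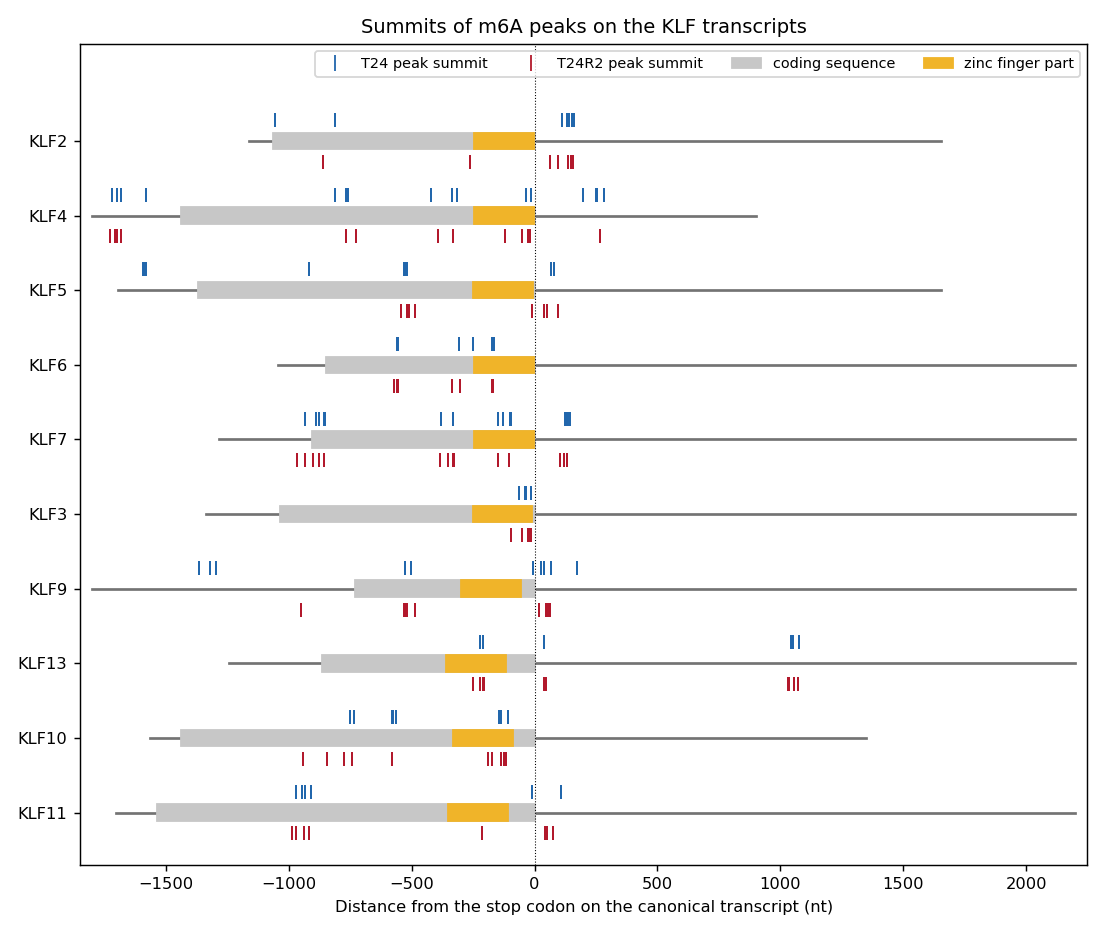
Summits of the KLF peaks by distance from the stop codon (nt) on each canonical transcript, with T24 summits above and T24R2 summits below each gene, the coding sequence in grey and the zinc finger part in yellow. Transcripts are drawn from 1800 nt before to 2200 nt after the stop codon, which holds all 210 placed summits, and 48 of the 134 coding summits lie in the yellow part.

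Each KLF protein held 3 C2H2 zinc fingers over 81 residues, found by translating the annotated coding sequences. This part made up 21.6% of the summed coding length and held 48 of the 134 coding summits (35.8%). These summits pool libraries that called the same regions, and the part lies toward the end of the coding sequence. A matching part of other coding sequences was not compared. KLF3 and KLF10 had a zinc finger peak in every library. The 10 KLF3 summits lay 13 to 94 nt before the stop codon, in exon 6 of 6. The 10 summits of KLF10 region 2 lay 106 to 189 nt before it, in exon 4 of 4. In KLF6 region 2 and KLF7 region 3, all 7 placed summits of each region lay in the zinc finger part. In every region of KLF2, KLF9 and KLF11, the strongest peak of each library lay outside it.

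The other summits formed recurrent clusters. KLF2 region 3 lay in the 3′UTR, 64 to 162 nt after the stop codon. KLF7 region 4 lay 103 to 143 nt after it. KLF13 region 2 was the farthest downstream, 1032 to 1078 nt after the stop codon in exon 2 of 2. KLF9 carried a coding cluster in exon 1 of 2, with a median of 526.5 nt before the stop codon, and a cluster at the start of the 3′UTR in exon 2. KLF4 region 1 was a 5′UTR cluster in exon 1 of 5, seen in 4 T24 and 5 T24R2 libraries.

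All 10 KLF genes carried a peak in every library, and each had at least 1 region called in all 10. Among protein-coding genes with a peak, 54.8% had such a region. The 10 genes were chosen with earlier results of these data known. Some other KLF genes carried an exonic peak, and KLF1, KLF14 and KLF17 carried none. The comparison therefore describes this set and not the family. Of the 26 KLF regions, 16 were called in all 10 libraries, and these held 170 of the 217 peaks. Over all regions the share was 21.9%. All regions, here and in later paragraphs, include those without an exonic summit, so they are not a like background. Another 3 regions, KLF2 region 2 and KLF7 regions 5 and 6, were called in 1 library each. A call needed only an overlapping peak. With the summit required in an exon, KLF7 region 3 counted in 4 T24 and 3 T24R2 libraries. Its strongest peak had a summit outside the exons in T24 replicate 1 and T24R2 replicates 2 and 4. The same held for KLF4 region 2 in T24R2 replicates 1 and 5.

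The number of KLF peaks in T24 replicates 1 to 5 was 18, 23, 24, 19 and 25. In T24R2 it was 21, 18, 24, 20 and 25. The means were 21.8 ± 3.11 and 21.6 ± 2.88 (SD, n = 5 each), and the lines overlapped. Among peaks with −log10 q of at least 10, counts were 13 to 15 in T24 and 16 to 20 in T24R2, without overlap. The lists held 10435 ± 2043 such peaks in T24 and 14488 ± 1899 in T24R2, and KLF peaks per 1000 of them were 1.08 to 1.79 in T24 and 1.13 to 1.37 in T24R2.

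No KLF region was called in all 5 libraries of one line and in none of the other, which held for 3.02% of all regions in favour of T24R2 and 1.05% in favour of T24. The largest imbalance was at KLF2 region 1 (chr19:16324787-16325468), which covers the start of the coding sequence of a factor known for endothelial quiescence. Peaks were present in 1 T24 library and in 5 T24R2 libraries (two-sided Fisher's exact test, p = 0.0476, Benjamini-Hochberg adjusted p = 0.517 over 43676 regions). Fisher's exact p-values below 0.05 before adjustment occurred at 7.11% of regions in favour of T24R2 and 2.09% in favour of T24, and no region passed after adjustment (smallest adjusted p = 0.195). With the summit required in a KLF2 exon, the region counted in 1 library of each line.

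KLF5, a factor of proliferating epithelium, had the opposite imbalance at its 5′ end. KLF5 region 1, in the 5′UTR (chr13:73059044-73059267), had peaks in 3 T24 libraries and 0 T24R2 libraries. Region 3, at the stop codon, had peaks in 2 and 4. The two-sided Fisher's exact p was 0.167 for region 1 and 0.524 for region 3 (adjusted p = 1 for both). Folds of the 3 T24 peaks in region 1 were 2.42 to 4.49. KLF6 region 2 was called in 3 and 5, KLF13 region 1 in 2 and 4, and KLF11 region 2 in 2 and 3 libraries of T24 and T24R2.

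Enrichment was compared through the fold of IP over input that the peak caller gave at the summit, ranked within each list from 0 (lowest) to 100 (highest), since raw folds shift with the list. The highest-ranked peak per library put KLF9, a glucocorticoid-induced factor, first, with a median percentile of 96.4 over the 10 libraries (range 85.8 to 99.5). KLF4 followed at 89.6 (42.9 to 96.0), then KLF2 at 87.7 (24.6 to 95.9) and KLF11 at 86.6 (26.1 to 95.3). KLF13 stood at 79.4 (44.5 to 99.96) and KLF7 at 78.6 (57.6 to 96.3).

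The lower part of the order was KLF6 at 54.0 (26.4 to 68.7), KLF5 at 43.8 (10.9 to 67.0), KLF10 at 37.2 (12.5 to 73.5) and KLF3 at 13.7 (2.75 to 57.7). Neighbours in this order overlapped in range. Genes with more peaks have more chances at a high rank. The single highest KLF fold was 28.7, at KLF13 region 2 in T24R2 replicate 3.

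**Figure D2:**
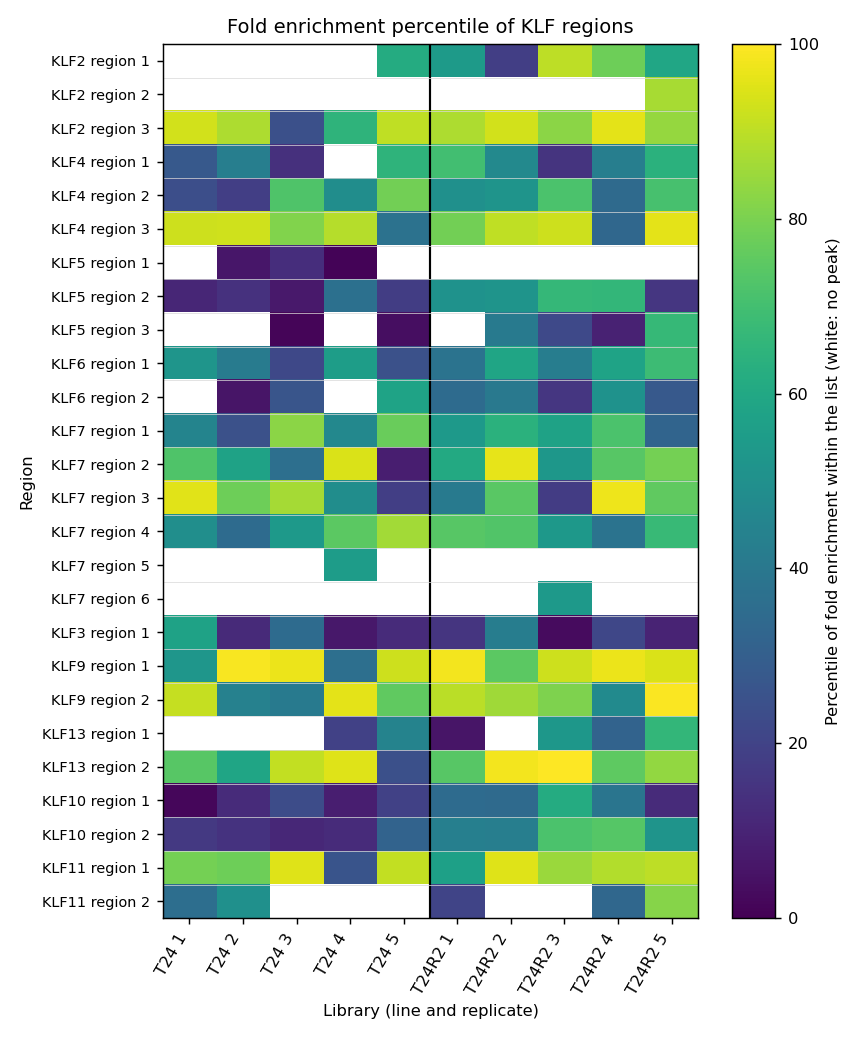
Fold enrichment percentile of each KLF region (rows) in each IP library (columns, T24 left of the line and T24R2 right), from 0 to 100, with white where no peak was called. KLF10 region 2 runs from 11.01 to 31.7 in T24 and from 42.7 to 73.5 in T24R2, while most other regions overlap between the lines.

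Between the lines, the clearest separation was at KLF10, the TGF-β-inducible factor. KLF10 region 2 (chr8:102649735-102650466) has its summits over the zinc finger coding sequence and extends past the stop codon into the 3′UTR. Its fold was 4.73, 4.27, 4.21, 4.18 and 5.43 in T24 replicates 1 to 5. In T24R2 replicates 1 to 5 it was 6.15, 6.99, 8.42, 9.80 and 6.78. Every T24R2 library was above every T24 library. The mean percentile went from 17.3 ± 8.34 to 56.5 ± 15.1 (SD, n = 5 libraries per line), 39.2 points higher in T24R2 (two-sided exact permutation test, p = 0.00794, the smallest that 5 against 5 allows, adjusted p = 0.176 over 9577 regions).

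The other KLF10 region shifted in the same direction with some overlap. KLF10 region 1 (chr8:102651165-102652003), in exon 3 of 4, had folds of 2.61, 4.07, 5.37, 3.81 and 4.60 in T24. In T24R2 the folds were 5.53, 6.41, 7.37, 6.13 and 4.09. Replicate 5 of T24R2 lay within the T24 range, and the other T24R2 libraries lay above it. The mean percentile was 13.0 ± 8.51 in T24 against 36.4 ± 17.4 in T24R2, which is 23.4 points apart (exact permutation p = 0.0317, adjusted p = 0.290). Without T24 replicate 1 or 4 or T24R2 replicate 3 or 4, the exact permutation p was 0.0556.

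The −log10 q of the same peaks moved alongside. At KLF10 region 1 it was 3.56, 6.29, 8.49, 6.64 and 6.03 in T24 and 15.0, 26.4, 19.1, 21.9 and 7.98 in T24R2. At region 2 it ran from 9.67 to 22.4 in T24 and from 20.9 to 47.0 in T24R2. Ranked within each list, −log10 q did not overlap between the lines at either region, with differences of 36.7 and 26.8 points (exact permutation p = 0.00794 and adjusted p = 0.126 for both). At region 1 the closest values were 41.2 in T24 replicate 3 and 41.6 in T24R2 replicate 5. By this ranking, 19.0% of the 9577 regions had an unadjusted exact permutation p below 0.05, both directions together. KLF10 input levels were not used here, so a change in transcript amount and a change in the mark cannot be told apart. This holds for −log10 q and for the peak widths below. The fold, a ratio of IP over input, was not checked against transcript amount either. These measures come from the same peaks and are not independent.

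KLF10 peaks were also longer in T24R2, a measure added after the data were seen. At region 1 the widest peak spanned 398, 167, 211, 295 and 172 bases in T24 and 688, 780, 709, 839 and 758 bases in T24R2. At region 2 the spans were 494, 209, 213, 259 and 312 bases in T24 and 662, 723, 628, 695 and 648 bases in T24R2. Neither region overlapped between the lines. Mean widths differed by 506 and 374 bases (exact permutation p = 0.00794 and adjusted p = 0.0766 for both). Peaks were wider in T24R2 at 86.6% of the 9577 regions, with a median difference of 82 bases, and 5.78% and 10.6% of regions had differences as large as those of KLF10 regions 1 and 2.

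Lines without overlap in width, wider in T24R2, made up 9.67% of all regions (0.689% wider in T24), near the 2 of 16 KLF regions. Widths also had an unadjusted exact permutation p below the threshold of 0.05 at KLF4 regions 2 and 3 and KLF9 region 2, giving 5 of 16 KLF regions, all wider in T24R2, against 28.2% of all regions wider in T24R2 and 1.52% wider in T24. At KLF4 region 2 the mean width was 693 ± 329 bases in T24 and 1388 ± 239 bases in T24R2 (exact permutation p = 0.0159, adjusted p = 0.0981). Its fold percentile differed by 7.26 points (exact permutation p = 0.603) and its −log10 q percentile by 30.1 points (exact permutation p = 0.0238, adjusted p = 0.192).

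KLF5 region 2 (chr13:73061773-73062645), in the coding part of exon 2 of 4, was the next largest fold difference. Its folds were 4.22, 4.23, 3.66, 5.89 and 4.50 in T24. In T24R2 they were 6.70, 7.81, 7.86, 8.77 and 4.34. Replicate 5 of T24R2 again fell within the T24 range and the other T24R2 libraries lay above it. The mean percentile was 17.4 ± 11.6 in T24 against 50.3 ± 20.7 in T24R2, which is 32.9 points apart (exact permutation p = 0.0238, adjusted p = 0.263). Without T24R2 replicate 2, 3 or 4, the exact permutation p was 0.0556. The −log10 q percentile differed by 8.60 points and overlapped (exact permutation p = 0.333).

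**Figure D3:**
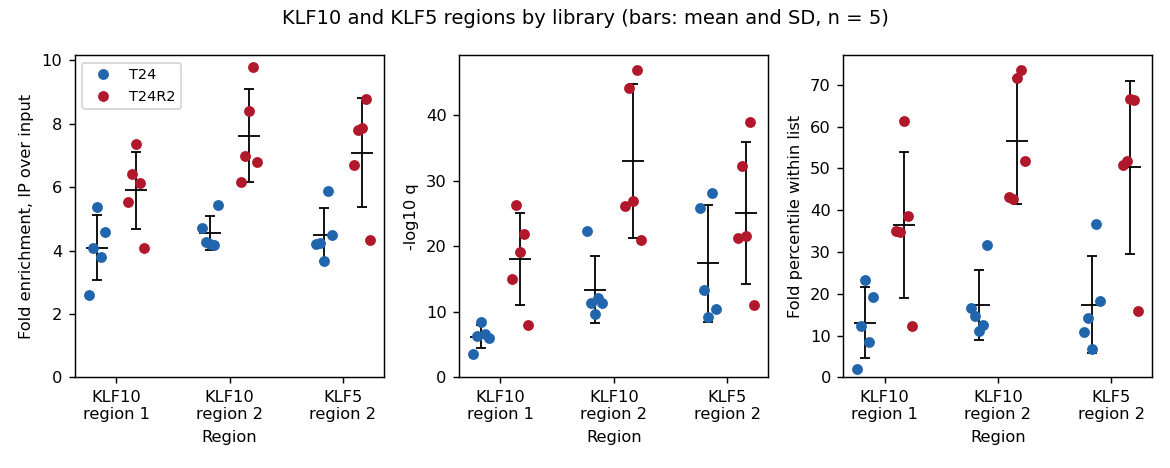
Fold enrichment, −log10 q and fold percentile (vertical axes) of KLF10 regions 1 and 2 and KLF5 region 2 in the 5 T24 (blue) and 5 T24R2 (red) libraries, with black bars for mean and SD. Folds at KLF10 region 2 span 4.18 to 5.43 in T24 and 6.15 to 9.80 in T24R2, and T24R2 replicate 5 sits among the T24 points at KLF10 region 1 and KLF5 region 2 for fold.

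The remaining activator regions overlapped between the lines in fold percentile. KLF2 region 3 was 72.3 ± 28.9 in T24 and 88.7 ± 5.69 in T24R2 (exact permutation p = 0.325), and its −log10 q percentile differed by 16.9 points (exact permutation p = 0.0397, adjusted p = 0.233). KLF6 region 1, in a factor known as a tumour suppressor, was 39.2 ± 15.5 and 53.2 ± 12.7 (exact permutation p = 0.159). KLF7, a factor of neuronal outgrowth, gave 53.8 ± 33.1 and 72.6 ± 16.8 at region 2 (exact permutation p = 0.278). Its regions 1, 3 and 4 differed by 0.610, -4.44 and 1.36 points, and these directions changed under another ranking or with 1 library left out. KLF4 region 3 differed by -0.321 points between lines that each held 1 library far below the others.

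KLF3 region 1, in the CtBP-binding repressor, was the lowest-ranked region called in all libraries in T24R2. Its percentile was 24.6 ± 21.5 in T24 and 18.4 ± 15.2 in T24R2 (exact permutation p = 0.627). Among the SIN3A-binding factors, KLF9 region 1 was 75.6 ± 28.9 and 91.4 ± 9.51 (exact permutation p = 0.357), and KLF13 region 2 was 68.6 ± 28.5 and 86.2 ± 12.4 (exact permutation p = 0.254). KLF9 region 2 and KLF11 region 1 differed by 11.2 and 9.21 points. The ranges of the lines overlapped at each of these regions.

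Over the 16 KLF regions called in all libraries, 3 had an unadjusted exact permutation p below 0.05, all higher in T24R2, beside 10.9% of all such regions higher in T24R2 and 3.04% higher in T24. Only KLF10 region 2 did not overlap between the lines, beside 3.63% and 0.867%. No KLF region and none of the 9577 passed after adjustment by this test, while 1332 of the 9577 had an unadjusted p below 0.05. The smallest adjusted p of this permutation test over all 9577 regions was 0.176, the value of KLF10 region 2. The unadjusted p of this test cannot go below 0.00794, so the missing calls do not show that the lines are alike. The mean percentile was higher in T24R2 at 13 of 16 KLF regions and at 64.4% of all regions, and the median difference was 12.6 points over the KLF regions and 4.84 over all.

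T24R2 lists were longer on average, and peaks called in a single line enter the ranking. When each library was ranked only over regions called in all 10, the median difference was -0.56 points over all regions and 5.82 over the KLF regions, with 10 of 16 higher in T24R2. KLF10 region 2 then differed by 23.2 points (exact permutation p = 0.0238, adjusted p = 0.284). KLF5 region 2 differed by 19.8 (p = 0.0556) and KLF10 region 1 by 11.5 (p = 0.183) in the same exact permutation test. With every list shortened to its 17203 peaks of highest −log10 q, 13 of these KLF regions were still called in all 10 libraries, and 9 of them were higher in T24R2. The median difference was then 7.78 points over the KLF regions and 0.15 over all 7012 such regions. KLF10 region 2 differed by 26.8 points and KLF5 region 2 by 24.7 (exact permutation p = 0.0159 and 0.0397), while KLF6 region 1 went from 13.9 to 3.30 points.

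**Figure D4:**
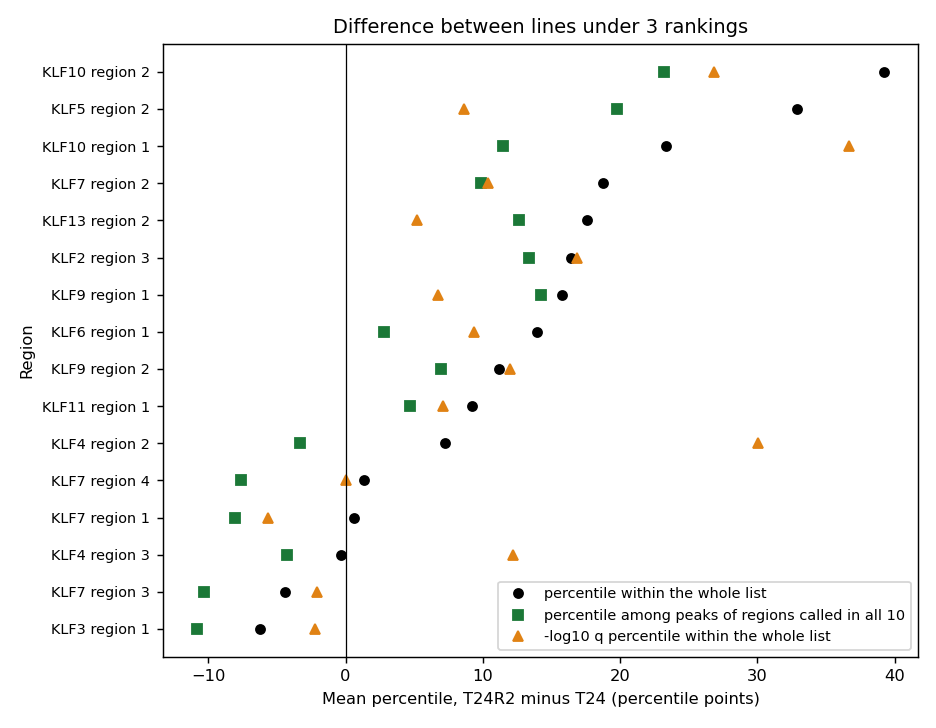
Mean percentile in T24R2 minus that in T24 (percentile points, horizontal axis) for the 16 KLF regions called in all 10 libraries, under 3 rankings: fold in the whole list, fold among regions called in all 10, and −log10 q in the whole list. KLF10 region 2 lies at 39.2, 23.2 and 26.8, and KLF4 region 2 and KLF7 regions 1 and 4 lie on both sides of 0 depending on the ranking.

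Other genes of the KLF network were counted as lists, beside a background of 10.9% of regions with an unadjusted permutation p below 0.05 and higher in T24R2, 3.04% higher in T24, and a median difference of 4.84 points over all regions. Of 16 other KLF and SP family genes, 11 had an exonic peak, and KLF1, KLF14, KLF17, SP7 and SP8 had none. Their 10 regions called in all libraries had a median difference of 20.5 points, with 3 unadjusted permutation calls higher in T24R2 and 0 higher in T24. Upstream kinases and MEF2 factors had a peak in 5 of 8 genes (none in MAP2K5, MEF2D or HDAC5), with 0 such calls among 5 regions and a median difference of -10.1 points.

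Cofactors had a peak in 7 of 10 genes, with none in HDAC1, HDAC2 or HDAC3, which are the deacetylases of the SIN3 and NCoR complexes. Among 13 cofactor regions called in all libraries, 1 call was higher in T24R2. Ubiquitin ligases that act on KLF proteins had a peak in 7 of 8 genes (none in WWP1) and 2 calls higher in T24R2 among 13 regions. Known target genes had a peak in 12 of 16, with none in CCNE1, KRT4, KRT19 or LGALS3, and 5 calls higher in T24R2 and 1 higher in T24 among 13 regions. The counts for cofactors and ubiquitin ligases were near the background share, and every list rests on 5 to 13 regions. In these 5 lists, 0 regions passed after adjustment and 0 were called in all libraries of one line and none of the other.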

How the data were processed

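MeRIP-seq was done on 20 libraries, 5 IP and 5 input per line. The authors aligned reads to hg38 with STAR 2.7.0, filtered with SAMtools 1.10 and called IP over input peaks with MACS2 3.0.0a6, per the submitters' processing notes and the study's methods. The deposited lists, 1 per IP library, give the fold as a ratio of IP over input, −log10 p and −log10 q values, a score, and summit offsets. The lowest deposited −log10 q was 2.00. The deposited merged region file equalled the merge of the 10 lists, with 0 differing regions. Input libraries were used only through these peak calls, and 0 columns of other samples were met.

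Summits were placed on GENCODE 44 exons and MANE Select transcripts (Python 3.11.15, numpy 2.4.6, pandas 2.3.3, scipy 1.17.1). A library called a region when a peak overlapped it by at least 1 bp, and the strongest fold per library was ranked within its list. Presence in 43676 regions was tested with Fisher's exact test (two-sided). Percentiles were tested with exact permutation tests over 252 assignments in 9577 regions called in all libraries. Both were adjusted by Benjamini-Hochberg, and the scripts were tested on simulated data. The count models of the study need read counts, which were not used here. Motif shares and counts used the genome sequence within 50 nt of summits, on the strand of the gene. Near exon ends these windows can run into introns. The printed motifs were located on the spliced canonical transcript. Members, gene lists and rules were chosen with earlier results of these data known. All members and all their regions are named, and other genes only where a region was called in one line alone, passed after adjustment, or no exonic peak was found. Marker genes are named by peak presence. Alternatives were a stricter −log10 q, equal list lengths, a coverage minimum, other rankings, a replicate block, a shorter motif window, canonical exons and each library left out. A summit requirement for presence and peak width were added after the data were seen.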

Additional observations from a re-analysis of the deposited data

Results flagged for a closer look

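In 6 of the 34 groups of 4 or 5 libraries tested, 1 library lay far from the others of its line, where chance gives about 1 in 20 groups. The values are fold percentiles. At KLF4 region 3, T24 replicate 5 stood at 37.5 with the others at 81.1 to 92.6, and T24R2 replicate 4 stood at 33.5 with the others at 78.6 to 96.0. At KLF9 region 1, T24R2 replicate 2 stood at 74.9 with the others at 92.4 to 98.3. At KLF11 region 1, T24 replicate 4 stood at 26.1 with the others at 78.0 to 95.3, and T24R2 replicate 1 stood at 56.8 with the others at 84.8 to 95.3. At KLF10 region 2, T24 replicate 5 stood at 31.7, above the others at 11.01 to 16.7 and below every T24R2 library. The reason for these distances was not tested.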

How the results depend on the processing

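Of 706 values recomputed under an alternative, 659 kept their direction and side of the threshold or stayed within the spread. Some could not change, since a region called in every library keeps a presence difference of 0 when 1 library is left out. Others lost an unadjusted p below 0.05. At KLF10 region 1 the exact permutation p went from 0.0317 to 0.183 with ranking over common regions. No KLF region passed after adjustment under any alternative. The count of KLF regions with an unadjusted presence p below 0.05 was 1 and became 2 with −log10 q of at least 10 and with at least 50% of the region covered, and 0 with equal list lengths of 17203 peaks and with the summit in an exon (chosen after seeing the data). It ranged from 1 to 2 with 1 library left out, with 2 without T24 replicate 1 or 5. Shares over all regions under these presence settings are not given here. The percentile count was 3 of 16 and became 1 of 16 with ranking over common regions. It was 2 of 13 with equal list lengths and 4 of 16 with the −log10 q ranking. Over all regions the unadjusted shares, both directions together, were 13.9%, 12.9%, 12.2% and 19.0% in the same order. The percentile count ranged from 1 to 3 with 1 library left out, with 1 without T24R2 replicate 3 or 4. In the 10 fits that left out 1 library, KLF10 region 2 differed by 35.0 to 42.8 points. Its exact permutation p was 0.00794 in each. Lines without overlap stay apart when 1 library is removed, so these p-values are no separate check. KLF10 region 1 could not be compared with equal list lengths.

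Replicate numbers did not pair the libraries (correlations of same-numbered deviations -0.03 to 0.11). With the replicate block, both unadjusted counts were 0, where the smallest p allowed is 0.0625.

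The T24R2 minus T24 difference in KLF peaks per library was -0.2 (-1.15 to 0.70 with 1 library left out) and turned to 4.2 at −log10 q of at least 10. The DRACH share fell from 86.6% to 64.4% within 25 nt (all exonic peaks 71.7%) and was 85.4% to 88.1% with 1 library left out.

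Some single regions changed direction. Ranking over common regions gave -3.30 points at KLF4 region 2, -8.08 at KLF7 region 1 and -7.61 at KLF7 region 4. Equal list lengths gave -3.74, -8.99 and -9.78 at the same 3 regions, and turned the presence difference of KLF11 region 2 to -1 library. The −log10 q ranking gave 12.2 at KLF4 region 3 and -5.62 at KLF7 region 1. The log2 fold differed by -0.040 at KLF7 region 1 and -0.037 at region 4. With 1 library left out, differences ran from -0.287 to 14.8 at KLF4 region 2, -10.6 to 10.8 at KLF4 region 3, -6.96 to 7.45 at KLF7 region 1, -16.2 to 6.45 at KLF7 region 3, -4.84 to 7.92 at KLF7 region 4, -12.3 to 2.03 at KLF3 region 1 and -2.73 to 15.8 at KLF11 region 1. The cause was not tested.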
